A study of Mus musculus with 6 samples.

Results

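The 9 genes described here encode proteins of the intercalated disc, the end-to-end contact between heart muscle cells. They were chosen by name from the deposited table: *Gja1* for the gap junction, *Cdh2*, *Ctnnb1*, *Ctnna3* and *Jup* for the adherens junction, *Dsp*, *Pkp2* and *Dsg2* for the desmosome and *Tjp1* for the scaffold under the membrane. All 9 were among the 17145 genes listed, and 7 had the 10 UMIs in total that were required for a test. A UMI is a random tag that lets each captured cDNA molecule be counted once.

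Both groups came from fresh-frozen hearts of FS6KD mice, labelled female, in which a gene trap lowers *Ndufs6* (respiratory complex I), on a mixed C57BL/6J and 129/Ola background. The Atf3 high and Atf3 low areas (3 libraries each) were chosen under the microscope by anti-Atf3 immunostaining and isolated by photo-isolation chemistry, in which ultraviolet light frees the caged primers of the chosen area so that its cDNA can be amplified. All libraries carry the knockdown, no wild-type library belongs to this comparison, and the age of the mice and whether high and low areas shared a heart are not given in the sources used here. The comparison asks how the transcriptome differed between areas of high and low Atf3 protein. The paper describes both as lying inside clusters of Atf3-positive cells, so Atf3 low does not mean absence of Atf3.

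The disc joins cardiomyocytes by 3 kinds of contact. Adherens junctions tie the actin of neighboring cells together through N-cadherin and the catenins, desmosomes anchor the desmin filaments through desmoglein, plakoglobin, plakophilin and desmoplakin, and gap junctions, built in the ventricle mainly of connexin 43, pass the electrical impulse from cell to cell. Loss of connexin 43 from the disc is a known feature of failing hearts, and inherited defects of desmosomal genes cause arrhythmogenic cardiomyopathy.

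Atf3 binds DNA as a dimer at sites of the ATF/CRE and AP-1 kinds, so the promoter of *Gja1*, the member with the smallest p, is shown with that of *Dsp*, the desmosomal gene with the deepest counts, for contrast. Each run covers 250 bases before to 50 bases after the annotated start on the plus strand of GRCm38.p6 (RefSeq), at chr10:56377050-56377349 for *Gja1* and chr13:38151044-38151343 for *Dsp*. Capitals mark matches, on either strand, to TGACGTCA, TGAGTCA or TGACGT, the last of which is also the start of the first.
Gja1: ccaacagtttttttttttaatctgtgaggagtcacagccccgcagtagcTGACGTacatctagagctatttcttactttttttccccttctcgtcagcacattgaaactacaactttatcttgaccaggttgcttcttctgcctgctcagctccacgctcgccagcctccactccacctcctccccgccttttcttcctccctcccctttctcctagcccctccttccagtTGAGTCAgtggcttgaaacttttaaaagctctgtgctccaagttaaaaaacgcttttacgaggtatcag
Dsp: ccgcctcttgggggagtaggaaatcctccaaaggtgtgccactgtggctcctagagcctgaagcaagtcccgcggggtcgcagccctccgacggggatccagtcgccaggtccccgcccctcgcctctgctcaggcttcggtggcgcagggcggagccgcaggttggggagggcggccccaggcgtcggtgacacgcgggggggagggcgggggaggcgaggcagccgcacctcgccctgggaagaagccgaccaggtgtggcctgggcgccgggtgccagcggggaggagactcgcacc
The *Gja1* window held TGAGTCA, 19 bases before the RefSeq start, and TGACGT, 201 bases before it, while the *Dsp* window held none of the 3. For *Gja1* the RefSeq start lies upstream of the GENCODE start (56377330), so distances from the latter are longer. Windows were found for 6 of the 9 members, and none of these held TGACGTCA. Of 32851 mouse promoter windows, 1.79% held TGACGTCA, 5.2% TGAGTCA and 7.51% TGACGT. A match describes the letters only, and binding was not measured in these data.

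The Atf3 high libraries held from 81117 to 210588 UMIs and the Atf3 low libraries from 81917 to 171536, so that 1 UMI was worth between 4.66 and 13.6 CPM, counts brought to a common depth by TMM over the genes tested. A gene without a UMI could have had up to 40.9 CPM in Atf3 low replicate 3, the library of smallest size after TMM (the level of 3 UMIs, counting error only). Atf3 high replicate 2 stands apart, with 16 Y-linked UMIs (*Ddx3y*, *Eif2s3y*) but no *Xist* UMI under a female label, so some results are also given without it. Counts of libraries in the same group differed by 3.55 to 5.07 chi-square units per degree of freedom, more than sampling noise, and each was kept as a replicate. *Atf3* RNA gave 50, 7 and 25 UMIs in the Atf3 high libraries (replicates 1 to 3) against 35, 0 and 8 in the Atf3 low ones, and *Ndufs6* gave 2, 0 and 3 against 0 in each. In CPM the *Atf3* groups overlapped (254, 84.5 and 116 against 236, 0 and 109), Atf3 low replicate 1 lying above 2 of the Atf3 high libraries. Of 9 cardiomyocyte markers all were detected, and their summed level was 18188 to 36323 CPM in the Atf3 high libraries and 41806 to 48907 in the others. Whether this reflects fewer cardiomyocytes or less RNA in each cannot be told apart in these libraries.

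*Gja1*, which encodes connexin 43, had the lowest p of the members. The gene spans bases 56377330 to 56402513 of chromosome 10 (GRCm38, plus strand). Replicates 1 to 3 gave 56, 21 and 77 UMIs in the Atf3 high areas and 164, 67 and 59 in the Atf3 low areas. As CPM, these were 285, 253 and 359 against 1105, 559 and 804. Every Atf3 high library was below every Atf3 low library, and the Atf3 low libraries were the more spread out. The means were 299 ± 54.1 and 823 ± 274 CPM (SD over 3 libraries each), a ratio of 0.363. The log2 fold change, Atf3 high over Atf3 low, was −1.45 (standard error 0.41) by edgeR's quasi-likelihood test. Its unadjusted p of 9.03e-04 became 0.364 after Benjamini-Hochberg adjustment over 7665 genes, so *Gja1* did not pass in edgeR. With DESeq2 it did (−1.48, adjusted p = 0.0444). Without Atf3 high replicate 2 the log2 fold change was −1.37 (unadjusted p = 0.00449, adjusted p = 0.929, edgeR).

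**Figure D1:**
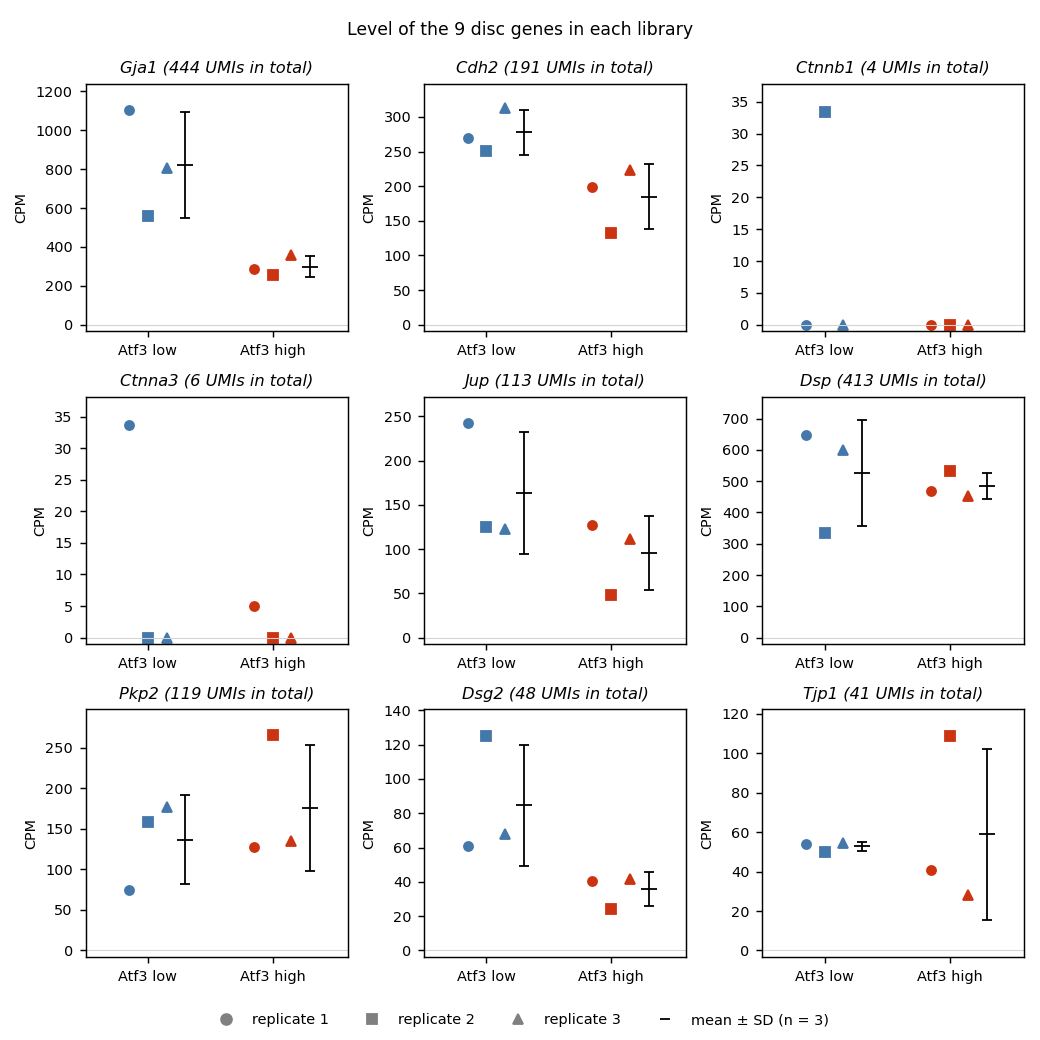
Level of each of the 9 genes in CPM (vertical axis of each panel, starting just below 0) in the 3 Atf3 low (blue) and 3 Atf3 high (red) libraries, with symbols for the replicate number and, for the 7 genes tested, a black bar for the mean and SD. The *Gja1* libraries do not overlap (253 to 359 CPM in Atf3 high, 559 to 1105 in Atf3 low), while those of *Dsp*, *Pkp2*, *Jup* and *Tjp1* do.

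Of the 4 adherens junction genes 2 could be tested, and 0 of these passed an unadjusted p of 0.05 in edgeR. *Cdh2* encodes N-cadherin, the adhesion receptor of this junction. Its UMIs were 39, 11 and 48 in the Atf3 high libraries against 40, 30 and 23. The levels were 198, 133 and 224 CPM against 270, 250 and 313, again without overlap between the groups. The log2 fold change of −0.55 (standard error 0.46, unadjusted p = 0.237, adjusted p = 0.996, edgeR) was close to its error. *Jup* encodes plakoglobin, which sits in both adherens junctions and desmosomes (chromosome 11, 100368958 to 100397763, minus strand). The Atf3 high libraries had 25, 4 and 24 UMIs and the Atf3 low ones 36, 15 and 9, or 127, 48.3 and 112 CPM against 243, 125 and 123. The groups overlapped, Atf3 low replicate 1 being the highest library, and the log2 fold change was −0.73 (standard error 0.55, unadjusted p = 0.189, edgeR). It was −0.36 without Atf3 low replicate 1 and −0.49 without Atf3 high replicate 2.

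The 2 catenins were too rare for a test. *Ctnnb1* encodes β-catenin, which links cadherins to α-catenin and also acts in Wnt signaling, and it had 4 UMIs, all in Atf3 low replicate 2. *Ctnna3* encodes αT-catenin, a link to actin that is typical of heart, and had 1 UMI in Atf3 high replicate 1 and 5 in Atf3 low replicate 1. These counts are at or near the level that a count of 3 allows, so no difference was detectable at this depth. The last 500 bases of *Ctnnb1* are overlapped by a coding gene on the other strand, *Ulk4* (0 UMIs), and 923 of 13209 protein-coding genes in the table (6.99%) have such an overlap. Their median was 7 UMIs, against 12 for the 12170 genes with no overlap by another coding gene. Whether the overlap lowered the *Ctnnb1* count was not tested. *Vcl*, which encodes vinculin, and *Nrap*, which encodes an actin anchor of the disc, had 1 UMI each with the same kind of overlap. Low counts were also found without an overlap by another coding gene, as for *Ctnna3* (6 UMIs), *Gja5* (2 UMIs) and *Src* (2 UMIs). *Vcl*, *Nrap*, *Gja5* and *Src* were chosen after their values were seen.

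None of the 3 desmosomal genes passed an unadjusted p of 0.05 in edgeR. *Dsp* encodes desmoplakin, which anchors the intermediate filaments (chromosome 13, 38151294 to 38198577, plus strand), and had 92, 44 and 97 UMIs in the Atf3 high libraries against 96, 40 and 44. Its levels were 467, 531 and 452 CPM against 647, 334 and 599, with the Atf3 high libraries inside the Atf3 low range. The log2 fold change was −0.13 (standard error 0.40, adjusted p = 0.996, edgeR). Its depth was close to that of *Gja1*, with 413 UMIs in total against 444. *Pkp2* encodes plakophilin 2, the plaque protein mutated most often in arrhythmogenic cardiomyopathy (chromosome 16, 16213318 to 16272712, plus strand). UMIs numbered 25, 22 and 29 in the Atf3 high libraries and 11, 19 and 13 in the Atf3 low ones, or 127, 266 and 135 CPM against 74.1, 159 and 177. The highest and lowest libraries belonged to opposite groups, the rest were mixed, and the log2 fold change was 0.35 (standard error 0.54). Without Atf3 high replicate 2 it was −0.037. *Dsg2* encodes desmoglein 2, the desmosomal cadherin of the heart. Its 48 UMIs were split as 8, 2 and 9 in the Atf3 high libraries and 9, 15 and 5 in the others, or 40.6, 24.1 and 41.9 CPM against 60.6, 125 and 68.1. The groups did not overlap, but each library rested on few UMIs, and the log2 fold change was −1.18 (standard error 0.74, unadjusted p = 0.117, edgeR).

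*Tjp1* encodes ZO-1, a scaffold that binds connexin 43 at the rim of the gap junction (chromosome 7, 65296165 to 65527781, minus strand). Few UMIs were found, 8, 9 and 6 in the Atf3 high libraries against 8, 6 and 4. The levels were 40.6, 109 and 27.9 CPM against 53.9, 50.1 and 54.5. Atf3 high replicate 2 was the highest of the 6 and the other 2 Atf3 high libraries were the lowest, so the log2 fold change of 0.05 (standard error 0.81) was −0.62 without that library.

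Of the 7 members tested, 5 were lower and 2 higher in Atf3 high, and the median log2 fold change was −0.55 beside 0.11 for all genes tested. By edgeR 0 of the 7 passed an adjusted p of 0.05, where 0.0913% of all genes tested passed, and DESeq2 called 1 of the 7. At an unadjusted p under 0.05, 1 member was lower, where 2.24% of all genes were, and 0 were higher, where 3.55% were. *Gja1*, *Cdh2* and *Dsg2* had every Atf3 high library below every Atf3 low library, a pattern found in 3.89% of all genes, and none had the opposite pattern, found in 7.07%. Exact permutation tests of single genes could not go below p = 0.1 with 3 libraries against 3, which was the value for *Gja1*.

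*Gja1* was then set against the other members within each library, a measure that needs no scaling between libraries. In all 3 Atf3 high libraries *Gja1* had fewer UMIs than *Dsp*, and in all 3 Atf3 low libraries it had more. *Gja1* made up 22.0%, 18.6% and 26.6% of the UMIs of the 9 members in the Atf3 high libraries and 44.4%, 34.2% and 37.6% in the Atf3 low ones. The means were 22.4% ± 4.0 and 38.7% ± 5.23 (SD, n = 3 libraries). By Wilson 95% intervals, the upper limits of the Atf3 high libraries were 27.5%, 26.7% and 31.9% and the lower limits of the Atf3 low libraries 39.5%, 27.9% and 30.4%, so that only Atf3 high replicate 3 reached into the intervals of Atf3 low replicates 2 and 3. These intervals cover counting error only and leave out the spread between libraries. As *Gja1* was singled out by its low p from the same counts, its lower share is a description and not further evidence. The summed level of the other 8 members was 1036 ± 64.6 CPM in the Atf3 high libraries and 1264 ± 164 in the others (SD, n = 3).

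The log2 ratio of *Gja1* to each of the 6 other members tested was taken with 0.5 UMIs added to each count. As *Gja1* had the lowest log2 fold change of the 7 members and is shared by the 6 ratios, their common direction follows from that value and is given as a description. The difference in group means was −1.34 against *Dsp*, −1.76 against *Pkp2* and −0.80 against *Cdh2*, and for these 3 the libraries of the groups did not overlap. Each had an exact permutation p of 0.1, the smallest that 3 against 3 allow, and an adjusted p of 0.20 over the 6 ratios. Against *Jup* (−0.63), *Dsg2* (−0.27) and *Tjp1* (−1.30) the groups overlapped. Without Atf3 low replicate 1, the ratio to *Dsg2* was higher in Atf3 high by 0.18. Without Atf3 high replicate 2, the differences were −1.16 against *Dsp*, −1.32 against *Pkp2*, −0.91 against *Cdh2*, −0.91 against *Jup*, −0.34 against *Dsg2* and −0.64 against *Tjp1*.

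**Figure D2:**
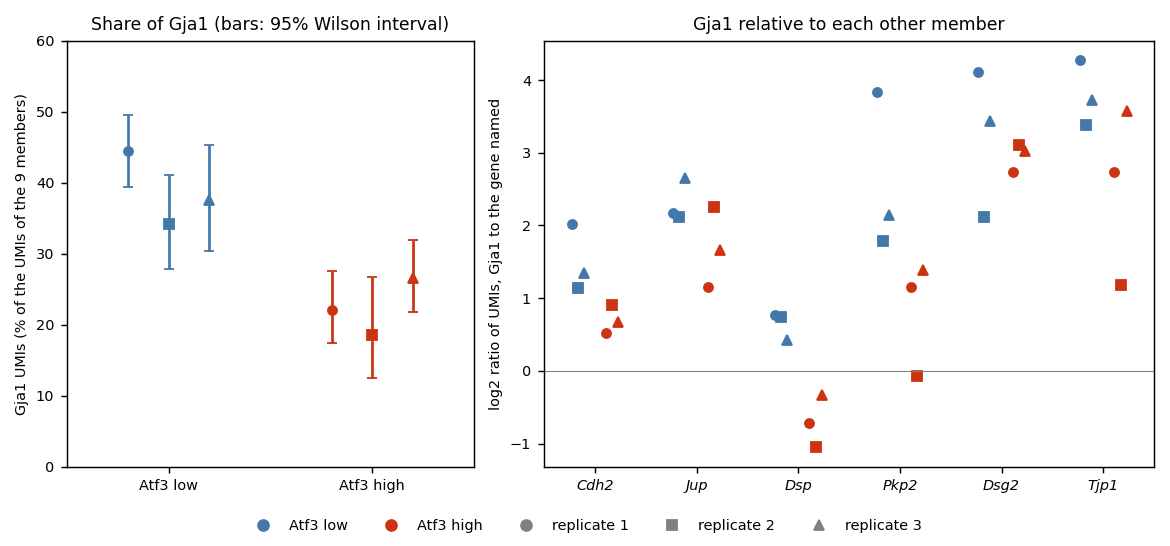
Left, *Gja1* UMIs as a percentage of the UMIs of the 9 members in each library, with 95% Wilson intervals that cover counting error only. Right, log2 ratio of *Gja1* UMIs to those of each other tested member, 1 symbol per library (blue, Atf3 low; red, Atf3 high). The 3 Atf3 high shares lie between 18.6% and 26.6%, below all 3 Atf3 low shares, and the ratio to *Dsp* is negative in every Atf3 high library and positive in every Atf3 low library.

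Markers of heart muscle also had lower values in Atf3 high. All 9 cardiomyocyte markers tested were lower in Atf3 high, 5 of them at an unadjusted p under 0.05, beside 44.8% and 2.24% of all genes tested. *Ttn* (−0.06, standard error 0.35) and *Actn2* (−0.20, standard error 0.38) were within their errors. *Myh6*, the adult myosin heavy chain, reached a log2 value of −1.81 (standard error 0.32, adjusted p = 0.00512, edgeR). The adjusted p of *Myh6* rose to 0.209, 0.115, 0.0508 and 0.273 in edgeR when Atf3 high replicate 1, Atf3 high replicate 2, Atf3 low replicate 1 or Atf3 low replicate 3 was dropped (log2 values from −1.85 to −1.58). The 7 fibroblast markers were all higher, 3 of them at an unadjusted p under 0.05, where 3.55% of all genes tested were. Their summed level was 1099 to 5188 CPM in the Atf3 high libraries against 531 to 2574. Mural markers were higher for 5 of 5 (266 to 666 CPM against 163 to 532), and the endothelial sum was 666 to 748 CPM against 340 to 708. The macrophage sum was 172 to 361 CPM against 243 to 359, and the atrial genes *Myl7*, *Sln* and *Bmp10* were not in the table used here. *Nppa*, of the same atrial list and also a stress gene of the ventricle, gave 31, 63 and 24 UMIs in the Atf3 high libraries against 2, 4 and 5. Its groups did not overlap in CPM and its log2 value was 3.22 (adjusted p = 0.0345, edgeR), or 1.91 (adjusted p = 0.938) when Atf3 high replicate 2 was dropped. What part fibroblast and mural RNA had in the *Gja1* difference was not tested.

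Per 1000 UMIs of the 9 cardiomyocyte markers, a scale chosen after the data were seen, *Gja1* was at 13.9, 13.9 and 9.87 in the Atf3 high libraries and at 26.4, 13.3 and 16.4 in the others. The groups overlapped on this scale, and the log2 difference was −0.52 (exact permutation p = 0.3), where it was −1.41 on log2(CPM + 4). Without *Myh6* among the markers, also chosen after its value was seen, the difference was −0.73 and the groups did not overlap (15.4, 16.3 and 11.3 against 35.5, 16.9 and 21.9; exact permutation p = 0.1). On the scale of 9 markers *Cdh2*, *Jup*, *Dsp*, *Pkp2* and *Tjp1* were higher in Atf3 high, by 0.28, 0.10, 0.82, 1.24 and 0.78 on the log2 scale, and *Dsg2* was at −0.25. The groups overlapped for each of them (exact permutation p = 0.3, 0.6, 0.2, 0.2, 0.5 and 0.7 in that order). Atf3 high replicate 2 was the highest library for *Dsp*, *Pkp2* and *Tjp1* (29.2, 14.6 and 5.97 per 1000). On log2(CPM + 4) the differences of *Cdh2*, *Jup*, *Dsp*, *Pkp2* and *Tjp1* were −0.60, −0.78, −0.07, 0.37 and −0.06, and that of *Dsg2* was −1.13. Thus *Cdh2*, *Jup*, *Dsp* and *Tjp1* had the other sign there, although the edgeR value of *Tjp1* was also positive (0.05).

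**Figure D3:**
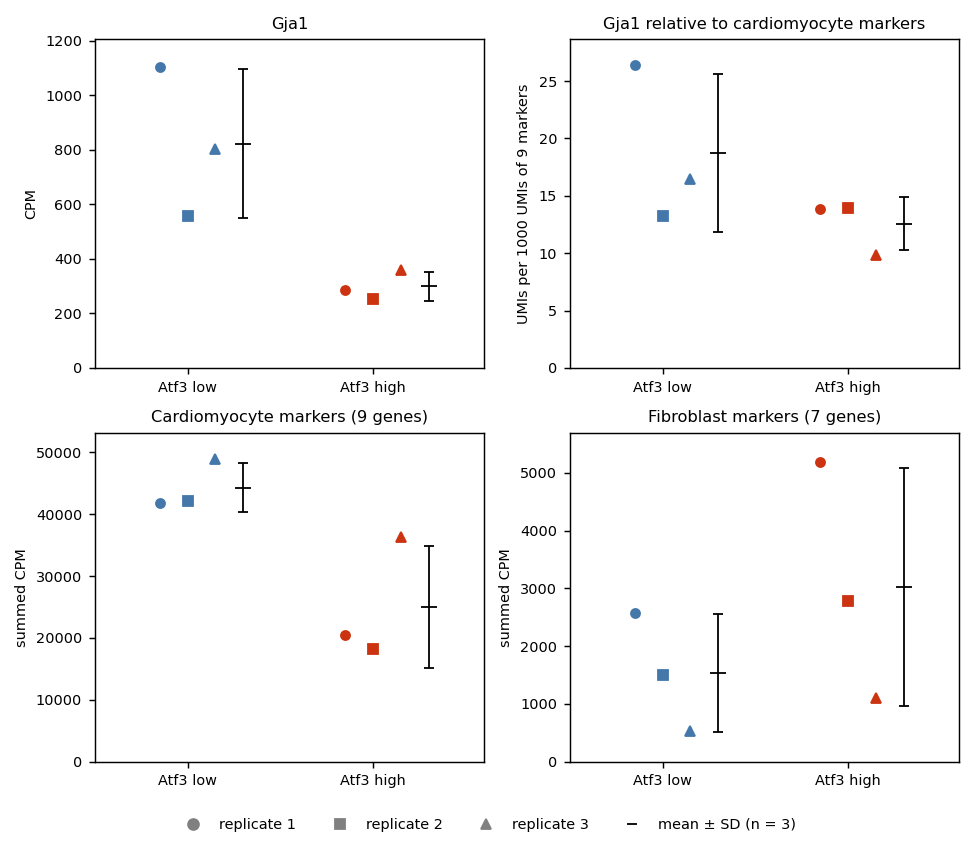
*Gja1* in CPM and per 1000 UMIs of 9 cardiomyocyte markers (upper panels), and the summed CPM of the 9 cardiomyocyte and 7 fibroblast markers (lower panels), in each library, with the mean and SD in black (n = 3). The cardiomyocyte sum lies between 18188 and 36323 CPM in Atf3 high and at 41806 CPM or more in each Atf3 low library, and the *Gja1* groups overlap only on the scale of the markers.

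Of 52 other genes of the disc and its partners, 36 were tested, 21 lower and 15 higher in Atf3 high, and their median log2 fold change was −0.28, where 44.8% of all genes tested were lower. The median was −0.0023 without Atf3 low replicate 2 and −0.08 with scaling by library size alone. Over all genes tested the median was 0.11 in the main fit, 0.14 without Atf3 low replicate 2 and 0.31 with library size alone. At an unadjusted p under 0.05, 2 were lower and 1 higher, beside 2.24% and 3.55% of all genes tested, and 0 passed an adjusted p of 0.05 by edgeR. *Fgf13*, which encodes a fibroblast growth factor homolog that binds sodium channels, had 1, 1 and 13 UMIs in the Atf3 high libraries against 12, 15 and 7. Its groups did not overlap in CPM, and its log2 fold change was −1.80 (standard error 0.78, unadjusted p = 0.0264, edgeR). *Lmo7*, which encodes a protein linking cadherins to actin, had 16, 15 and 61 UMIs against 40, 56 and 30 and changed by −1.05 (standard error 0.48, unadjusted p = 0.0319, edgeR).

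*Xirp2*, which encodes an actin-binding Xin repeat protein of the disc, went the other way. There were 575, 256 and 257 UMIs in the Atf3 high libraries against 192, 211 and 46, which gave 0.96 on the log2 scale (standard error 0.38, unadjusted p = 0.0155, edgeR). Its CPM overlapped between the groups, Atf3 high replicate 3 lying below 2 of the Atf3 low libraries. Each of these 3 genes missed an unadjusted p of 0.05 when some single libraries were left out. All 3 missed it without Atf3 high replicate 1 (*Fgf13* −1.29, *Lmo7* −0.69, *Xirp2* 0.80) and without Atf3 high replicate 2 (−1.58, −1.06 and 0.73). *Fgf13* and *Lmo7* also missed it without Atf3 low replicate 2 (−1.65 and −0.92), and *Lmo7* and *Xirp2* without Atf3 low replicate 3 (−1.01 and 0.63). Without Atf3 high replicate 3, which holds 13 of its 15 UMIs in that group, *Fgf13* was at −3.59.

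In the other lists the genes of smallest p did not pass: *Gja4*, a connexin of vessels, had −0.47, *Ctnnd1*, the p120-catenin that stabilizes cadherins, −1.17, and *Perp*, a desmosomal membrane protein, −0.76 (−0.21 without Atf3 low replicate 3). *Prkce*, a kinase of connexin 43, had −1.80, but 12 of its 17 UMIs were in Atf3 low replicate 2, and limma-voom gave −0.29. *Gsk3b*, a kinase that marks β-catenin for breakdown, had 1.12 (standard error 0.71).

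**Figure D4:**
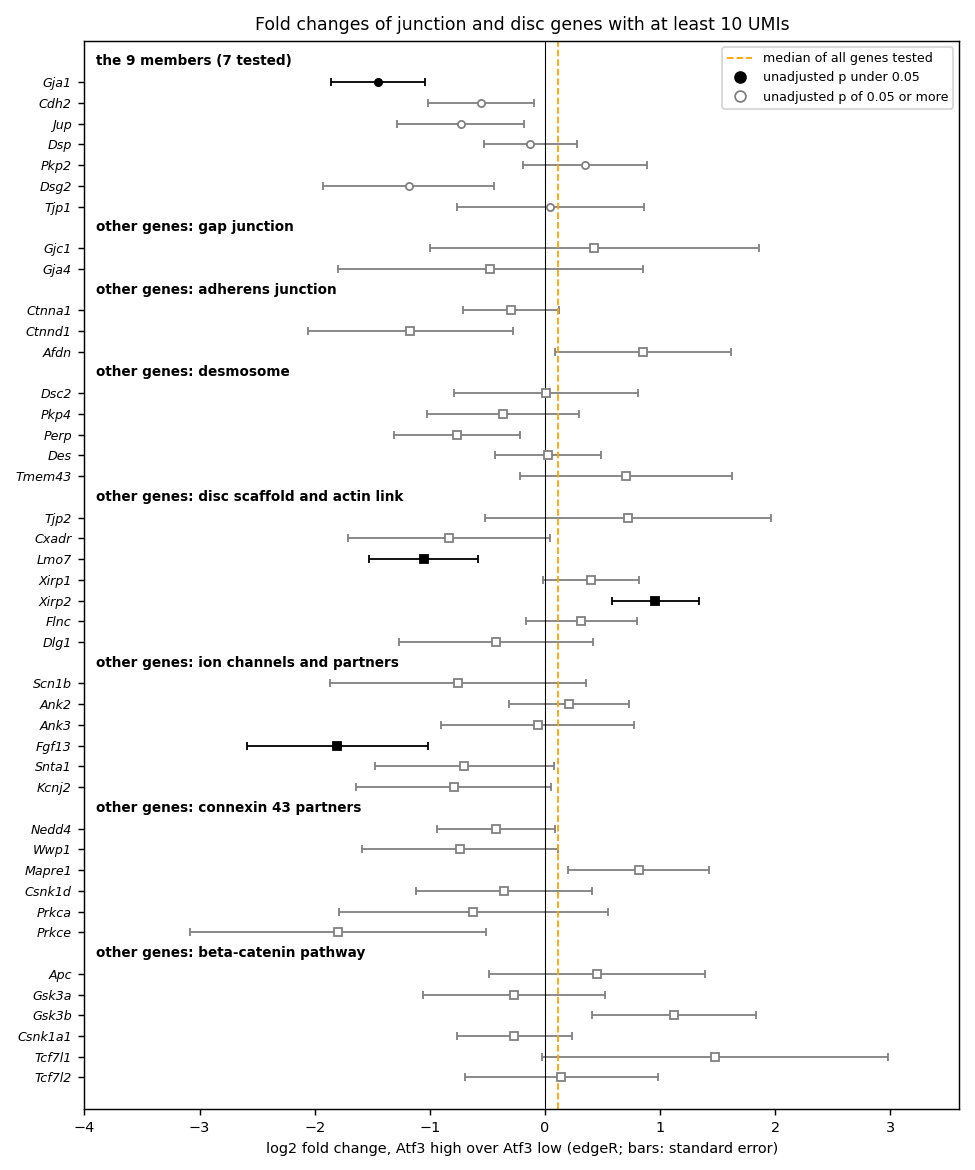
Log2 fold change, Atf3 high over Atf3 low (horizontal axis, edgeR, bars for the standard error), of the 7 members tested and of other disc genes tested, grouped by list. Black symbols have an unadjusted p under 0.05, and the dashed line is the median of all genes tested (0.11). *Gja1* (−1.45) is the one member in black, beside *Lmo7*, *Fgf13* and *Xirp2* among the other genes.

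Of 1023 genes with at least 100 UMIs, those whose pattern over the 6 libraries was most like that of *Gja1* were *Gm28438*, *Gm13341* and *Lpin1*. Likeness was the mean absolute difference of log2(CPM + 4) after each gene was centred on its own mean, and it was 0.057, 0.103 and 0.20, where the median of the 1023 was 0.76. *Gm28438* and *Gm13341* are nuclear copies of the mitochondrial genes *mt-Nd3* and *mt-Co2*, so their reads may belong to those genes, and *Lpin1* encodes a phosphatidate phosphatase. Of the members, *Cdh2* ranked 36, *Jup* 44, *Dsp* 370 and *Pkp2* 705 by the same measure.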

How the data were processed

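The authors prepared CEL-seq2 libraries and deposited raw UMI counts, with 1 column per library. The submitters' processing notes name HISAT2 (2.1.0), UMI-tools (1.0.0), featureCounts (1.6.4) and GRCm38, and the methods name iDEP for later analysis; strand and shared-read settings of the counting are not given in the sources used here. Counts were not divided by gene length, so levels were compared between libraries and not between genes. Libraries were grouped by their labels. Rows without a symbol (194) were kept under their identifiers.

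Genes with at least 10 UMIs in total entered edgeR (4.0.16) in R (4.3.3), with TMM scaling, glmQLFit and glmQLFTest, and Benjamini-Hochberg adjustment over all of them. Standard errors are the absolute log2 fold change over the root of the F statistic. The fit was tested on simulated data. DESeq2 (1.42.0), limma (3.58.1) and other scalings, filters and left-out libraries were alternatives. The p-values set each difference against the spread between these libraries. The main fit treats the libraries as independent, although whether high and low areas shared a heart is not given. Permutation tests were two-sided and exact. Copies were sought with BLAST+ (2.17.0) at 95% identity over 200 bases. The matches were *Ulk4* for *Ctnnb1*, *Gm16090* for *Dsg2* and *Gm10129* for *Dsp*, each with 0 UMIs, and the search did not record their strand. Positions are from GENCODE for GRCm38.

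The members and lists were chosen with earlier results of these data known. Named are all members, of each other list the genes at an unadjusted p under 0.05 and the gene of smallest p, and the 3 genes most like *Gja1*. *Myh6* among the markers, and *Vcl*, *Nrap*, *Gja5* and *Src* among the other genes, were named after their values were seen. A gene of the other lists is counted there but not reported here.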

Additional observations from a re-analysis of the deposited data

How the results depend on the processing

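Over 17 alternatives *Gja1* kept its direction, with a log2 fold change from −1.71 to −1.22 (the range with each library left out), and of 117 values of members 107 kept theirs. Members called were 1 with DESeq2 and 1 with a replicate block, both *Gja1* (adjusted p = 0.0197 with the block, edgeR), and 0 otherwise. Same-numbered libraries correlated at 0.085, 0.00088 and 0.066 in their deviations, and differently numbered ones at −0.095 to 0.019. All of these values were small. The paper's figure legend names a pairwise t test for these libraries, its methods name a t test, and neither states which libraries would form pairs. The numbers were therefore not taken as pairs in the main fit. Whether they are pairs is not settled by these values. The block called 24 genes in all, DESeq2 12, a two-group linear model 1 and edgeR with each library left out 0 to 11. At an unadjusted p under 0.05, genes lower in Atf3 high numbered 104 with library size alone and 59 with filterByExpr. Genes higher numbered 127 with DESeq2, 410 with library size alone, 60 with filterByExpr, 179 after thinning and 146 to 315 with each library left out. The two-group linear model found 2 members lower (*Gja1* and *Dsg2*), and 0 of the other disc genes in either direction, where library size alone found 1 lower and the left-out libraries 0 to 2 lower and 0 to 1 higher.

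Directions turned for *Dsp* with library size alone (0.10, level 0.14) and with a library left out (−0.42 to 0.0082), and for *Pkp2* with a library left out (−0.037 to 0.55, negative when Atf3 high replicate 2 or Atf3 low replicate 1 was dropped). For *Tjp1* they turned with the block (−0.037), limma-voom (−0.33), limma-trend (−0.027), the two-group model (−0.063) and a library left out (−0.62 to 0.41), and for its level with library size alone (0.13). *Gja4* turned with the two-group model (0.14) and the ratio of *Gja1* to *Dsg2* with a library left out (−0.82 to 0.18). Per 1000 cardiomyocyte-marker UMIs, a scale added after seeing the data, *Cdh2* (0.28), *Jup* (0.10), *Dsp* (0.82) and *Tjp1* (0.78) turned against their levels on log2(CPM + 4), which for *Tjp1* was −0.063 where edgeR gave 0.05. On the marker scale the groups overlapped for each of these genes. The cause of these turns was not tested. The filterByExpr filter gave no value for *Dsg2* and *Tjp1*. Depth limits *Dsg2*, *Tjp1*, *Ctnnb1* and *Ctnna3* most.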
